A study of Mus musculus with 36 samples.

Results

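Transcripts of 9 genes of cytokine signalling were followed across all 36 RNA-seq libraries of bone marrow-derived macrophages (BMDMs): the transcription factors Stat2, Stat3, Stat4, Stat5a, Stat5b and Stat6, and the feedback inhibitors Socs1, Socs3 and Cish. The members were taken by gene name from a table of 54532 genes, and each of the 9 had 1 row. BMDMs were grown from female C57BL/6 mice aged 13 to 17 weeks, for 7 days in medium with 20% serum and MCSF. WT cells came from littermates that carry the Bmal1 flox/flox alleles without Cre (n = 3 replicates), and KO cells from LysM-Cre;Bmal1 flox/flox mice (n = 6 replicates), in which the LysM promoter drives Cre in myeloid cells. The 2 genotypes therefore also differ in the presence of Cre, and an effect of Cre cannot be told apart from one of the deletion. Cells of each genotype received for 6 h DMSO alone (vehicle), 100 µM Core Circadian Modulator (CCM), 100 nM lipopolysaccharide (LPS) with DMSO, or LPS with CCM. CCM is a small molecule that binds the PASB domain of the clock transcription factor BMAL1, and LPS is a bacterial cell wall component that activates macrophages through Toll-like receptor signalling. The labels do not say that a replicate number marks 1 animal, so p-values measure the spread between these libraries.

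STAT proteins wait in the cytoplasm as latent transcription factors until a cytokine binds its receptor. Janus kinases on the receptor then phosphorylate them, and the STAT dimers enter the nucleus and bind short DNA elements. Among the genes they switch on are those of the SOCS family, whose products bind Janus kinases or receptors and end the signal, so that the pathway limits itself. In macrophages interferons act largely through STAT2-containing complexes, interleukin 10 and interleukin 6 through STAT3, and interleukin 4 through STAT6.

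Read pairs counted on genes were between 13469262 and 28288923 per library, with a median of 19951421. Levels are given as CPM, read counts scaled to the size of the library with TMM factors, and changes on the log2 scale with their standard error (SE), from edgeR's quasi-likelihood test. A gene was called when its p-value, adjusted by the Benjamini-Hochberg method over all genes tested, was at most 0.05. The 6 macrophage markers examined summed to between 2910 and 6100 CPM per library, while markers of dendritic, B, T and erythroid cells summed to at most 10.9 CPM per list. Fibroblast markers summed to between 300 and 1650 CPM, and which cells they came from was not tested. KO replicate 6 stood apart in all 4 treatments: its mean correlation with the libraries of its group was 0.831 to 0.914, against 0.955 to 0.974 for the other KO libraries and 0.988 to 0.995 for WT. Neutrophil markers summed to 849 to 878 CPM in it and to 254 to 737 CPM in the other libraries. Each of the 6 genes of that list had its highest level in a library of this replicate, from 0.562 CPM for Ly6g to 479 CPM for S100a9. T cell markers, at low levels, summed to 1.63 to 2.72 CPM in it and to 0.0548 to 1.02 CPM in the others. Erythroid markers summed to 4.62 to 10.9 CPM in it and to 1.05 to 6.81 CPM in the others. Macrophage markers summed to 2910 to 4320 CPM in it and to 3940 to 6100 CPM in the others. The genes of that list did not move together. Adgre1, Csf1r, Itgam and Mertk had their lowest level in a library of this replicate, while Cd68 (1430 CPM) and Fcgr1 (779 CPM) had their highest. The part of these differences in the results was not tested. Counts of the Bmal1 gene itself were 7.52 to 12.9 CPM in WT and 2.02 to 10.8 CPM in KO, so the genotypes overlapped at the level of the whole gene. The whole gene also holds the exons outside the floxed part, and how completely the floxed part was lost was not tested. For the limited effects of CCM in KO cells, the authors name an incompletely penetrant deletion or limited off-target actions as possible sources. Because KO replicate 6 stood apart, results in KO are given with and without it where it matters.

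The members lie on 5 chromosomes of GRCm38, and the coordinates in the table matched those of GENCODE M21 for each of the 9. Stat5b (chr11:100780731-100850724, minus strand), Stat5a (chr11:100859351-100885169, plus strand) and Stat3 (chr11:100885098-100939540, minus strand) are neighbours, and Socs3 (chr11:117966079-117970047, minus strand) lies on the same chromosome. Stat6 (chr10:127642986-127660957, plus strand) and Stat2 (chr10:128270559-128292849, plus strand) share chromosome 10. Socs1 is at chr16:10782240-10785536 on the minus strand, Cish at chr9:107296026-107302784 on the plus strand, and Stat4 at chr1:51987148-52107189 on the plus strand. Stat3 and Stat5a overlap by 72 exonic bases at their 3′ ends, and Stat6 overlaps Nab2 on the other strand by 40. Of the distinct 100-base stretches of the annotated transcripts, Stat5a shares 3.44% and Stat5b 4.79%, with each other. Stat4 shares 17.98% of its stretches with the annotated gene Gm28177 on the same strand. Cish shares 6.75% with the antisense genes Gm17040 and Gm17041. Whether reads were counted by strand is not given in the sources used here, so counts of Cish are uncertain to that extent. The overlap of Stat4 and Gm28177 lies on 1 strand and leaves the counts of Stat4 uncertain whatever the setting.

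Promoter sequence is shown for 4 members that rose with LPS because it holds the letters of elements that STAT and interferon regulatory complexes are known to bind. RefSeq windows of GRCm38.p6, from 250 bases before to 50 after the start, were searched on both strands for 4 motifs: TTCNNNGAA (the GAS element), TTC and GAA parted by any 4 letters (the spaced form that STAT6 prefers), GAAA and GAAA parted by any 2 letters (the core of the interferon response element) and CACGTG (the E-box that CLOCK and BMAL1 bind). Each member had 1 or 2 windows. Of all 32851 windows, 8.30% held the GAS letters, 6.95% the spaced form, 3.44% the interferon core and 7.15% the E-box. Capitals mark the letters that matched, and position -1 is the base before the start.
Socs1, chr16:10785537-10785786, minus strand: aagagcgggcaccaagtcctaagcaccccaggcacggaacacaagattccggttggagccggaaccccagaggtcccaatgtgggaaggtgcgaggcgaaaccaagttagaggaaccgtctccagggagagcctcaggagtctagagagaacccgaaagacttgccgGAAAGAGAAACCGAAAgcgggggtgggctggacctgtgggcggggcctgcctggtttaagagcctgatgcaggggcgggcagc
Stat2, chr10:128270248-128270497, plus strand: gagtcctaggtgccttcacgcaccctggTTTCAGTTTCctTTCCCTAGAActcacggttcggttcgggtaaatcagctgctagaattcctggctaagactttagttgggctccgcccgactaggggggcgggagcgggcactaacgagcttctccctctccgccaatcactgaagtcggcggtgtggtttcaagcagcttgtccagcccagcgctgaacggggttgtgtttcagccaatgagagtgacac
Socs3, chr11:117969452-117969616, minus strand: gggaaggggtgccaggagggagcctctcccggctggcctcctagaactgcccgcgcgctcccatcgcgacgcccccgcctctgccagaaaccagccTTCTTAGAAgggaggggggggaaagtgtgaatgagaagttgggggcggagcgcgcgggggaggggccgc
Cish, chr9:107296659-107296688, plus strand: TTCCTGGAAagTTCTTGGAAatctgtcaaa
In Socs1 a pair of interferon cores that share 4 letters began at positions -83 and -77. In Stat2 an interferon core on the minus strand began at -222 and the spaced form at -210. Socs3 held a GAS element at -154. In Cish, of which only the first 30 bases from the RefSeq start are shown, GAS elements began at positions 1 and 12. That start, at chr9:107296659, lies inside the gene as annotated in the table, which begins at 107296026. The stretch shown for Socs3 also lies inside its annotated gene. An interferon core was also found in 1 of the 2 windows of Stat4, at -97, a gene that LPS did not move past the test. None of these letters were found in the windows of Stat3, Stat5a, Stat5b or Stat6, and no window of a member held the E-box letters. A match is a description of the letters and not evidence of binding.

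Before stimulation Stat6, the factor downstream of interleukin 4 and interleukin 13, was the most abundant member. Per kilobase of gene length its level in WT vehicle libraries was 50.3 ± 1.65 CPM per kb (s.d., n = 3), followed by Stat3 at 11.03 ± 0.71 and Stat5b at 10.5 ± 0.0045 CPM per kb, which overlapped within their spread. Stat2 stood at 5.07 CPM per kb, Stat5a at 3.41, Socs3 at 3.03 and Socs1 at 1.73. Stat4, the factor of interleukin 12 signalling, was at 0.190 CPM per kb and Cish at 0.0862. KO vehicle libraries had the same order, except that Socs3 (3.51 CPM per kb) stood before Stat5a (3.22), 2 levels that overlapped within their spread. With LPS the order of levels changed: Socs3 came first at 166 ± 22.6 CPM per kb in WT and 167 ± 33.9 in KO (s.d., n = 6), with Stat2 at 49.1 and 44.2 CPM per kb, Stat6 at 39.2 and 38.1 and Stat3 at 33.9 and 31.2.

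**Figure D1:**
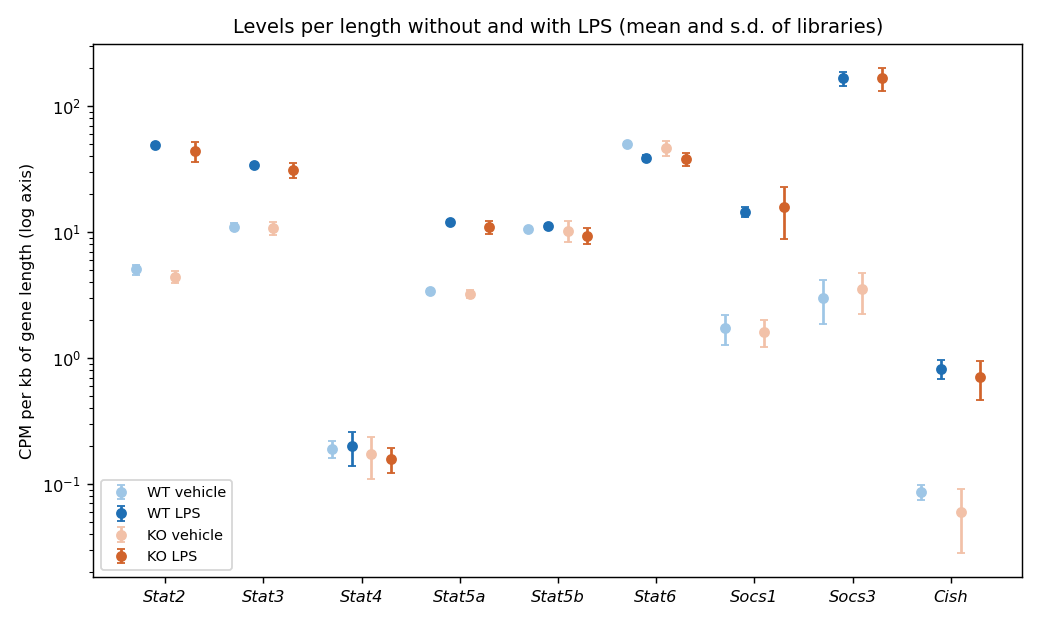
Level of each member per kilobase of gene length (CPM per kb, log axis) in vehicle and LPS libraries of WT (n = 3) and KO (n = 6), as mean and s.d. Stat6 was highest without LPS at 50.3 CPM per kb in WT, and Socs3 was highest with LPS at 166 CPM per kb.

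LPS raised 6 of the 9 members in WT macrophages and lowered 1. This count is set beside a response in which 63% of the 14501 genes tested were called, 30.6% higher and 32.4% lower. All 3 SOCS family members rose, as did Stat2, Stat3 and Stat5a. Stat6 fell, and Stat4 and Stat5b did not pass the test. The median log2 change of the members was 1.85, against -0.05 over all genes. Under scaling by total counts alone the median of all genes was -0.47 in place of -0.05, and the calls split into 2551 higher and 8060 lower in place of 4441 and 4698, so the smaller changes below are also given relative to the median of all genes.

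Socs3, which restrains the receptors that signal through STAT3, changed most. Its level was 7.59, 6.16 and 12.5 CPM in the WT vehicle libraries and 407, 508 and 529 CPM with LPS. The groups lay far apart, with a log2 change of 5.78 (SE 0.23, adjusted p = 9.01e-09), or 54.9-fold with a 95% interval of 38.6 to 78.1. Socs1, the inhibitor of interferon receptor signalling, stood at 5.998, 3.503 and 5.553 CPM with vehicle and 40.3, 46.3 and 39.2 CPM with LPS, a log2 change of 3.08 (SE 0.16, adjusted p = 6.46e-08). Cish, a product of STAT5 activity in many cells, was rare without LPS, with 14, 11 and 21 read pairs or 0.531, 0.488 and 0.641 CPM. With LPS it reached 4.43, 6.21 and 5.27 CPM. No library of one group reached the other, and the log2 change was 3.27 (SE 0.24, adjusted p = 1.27e-06), relative to a low starting level.

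Among the transcription factors Stat2, a subunit of the interferon-stimulated complex ISGF3, moved most. Its vehicle libraries held 30.9, 32.2 and 26.9 CPM and its LPS libraries 294, 279.8 and 299.5 CPM, a log2 change of 3.31 (SE 0.078, adjusted p = 2.36e-10) or 9.91-fold. Stat5a and Stat5b are close paralogues that serve growth factor and interleukin receptors, and their levels moved unequally. Stat5a went from 25.5, 23.7 and 23.7 CPM to 89.1, 84.4 and 84.5 CPM, with a log2 change of 1.85 (SE 0.062, adjusted p = 2.79e-09). Stat5b measured 58.4 CPM in each vehicle library and 60.37, 60.03 and 64.48 CPM with LPS, so that the groups did not overlap, with a log2 change of 0.11 (SE 0.059, adjusted p = 0.146), and stood at -0.31 (adjusted p = 0.00138) when scaled by total counts alone. Relative to the median of all genes its change was 0.16 under either scaling. Stat3 rose from 99.7, 102.8 and 112.7 CPM to 308.5, 321.9 and 338.2 CPM, a log2 change of 1.65 (SE 0.070, adjusted p = 1.58e-08).

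Stat6 was the member that fell. Its 3 vehicle libraries held 228.4, 221.8 and 213.9 CPM and its LPS libraries 161.4, 175.5 and 180.3 CPM, so that every LPS library lay below every vehicle library. The log2 change was -0.33 (SE 0.059, adjusted p = 0.000689) and -0.28 relative to the median of all genes. In a fit across all 36 libraries the adjusted p was 0.121. Stat4 had 10 to 24 read pairs per library in both groups. Its log2 change of 0.12 had a 95% interval from -0.64 to 0.88, so a rise or a fall within these bounds was not excluded.

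In KO macrophages LPS called the same 7 members in the same directions, where 47.1% of 13648 genes were called, 22.4% higher and 24.7% lower. Same-numbered KO libraries deviated together, and the replicate block called 9774 genes in place of 6433 and again 7 members. Without KO replicate 6, 9612 genes and 7 members were called. Socs3 had 6.35, 9.47 and 16.6 CPM as the lowest, median and highest of the 6 vehicle libraries and 296, 499 and 564 CPM with LPS, a log2 change of 5.58 (SE 0.26, adjusted p = 1.55e-09). For Stat2 the lowest, median and highest were 20.9, 26.8 and 28.5 CPM with vehicle and 218, 241 and 341 CPM with LPS, a log2 change of 3.32 (SE 0.13). The vehicle and LPS groups did not overlap for Stat2, Stat3, Stat5a, Socs1, Socs3 and Cish in both genotypes. The share of all genes that separated in this way was not counted. The changes were 3.32 for Socs1, 3.60 for Cish, 1.77 for Stat5a and 1.53 for Stat3, with adjusted p between 3.61e-09 and 2.72e-06. Cish had 3 to 16 read pairs in the KO vehicle libraries and did not pass the filter on low counts without LPS. It entered this test through its LPS libraries, so its call as higher is partly fixed by the filter. Socs1 under LPS varied most among KO libraries, from 25.2 to 81.5 CPM with the highest value in KO replicate 6. Without this replicate its log2 change was 2.97 (SE 0.21, adjusted p = 2.59e-08).

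The fall of Stat6 in KO lay close to the threshold. It went from a lowest, median and highest of 150.5, 215 and 226 CPM with vehicle to 129, 175 and 179 CPM with LPS, lower in 6 of 6 same-numbered pairs although the groups overlapped. The log2 change was -0.29 (SE 0.10, adjusted p = 0.0311). Leaving out any 1 of KO replicates 1 to 5 moved the adjusted p above the threshold, to 0.101, 0.0951, 0.103, 0.0618 and 0.0813 in that order. The call was also lost with DESeq2 (adjusted p = 0.0599), RLE size factors (0.0593), no filter on low counts (0.0893) and a fit across all 36 libraries (0.051). It was kept under total counts alone, in the replicate block fit (adjusted p = 0.000123) and without KO replicate 6 (-0.31, adjusted p = 4.57e-05). Stat4 (-0.10, SE 0.29) and Stat5b (-0.13, SE 0.13) did not pass the test.

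**Figure D2:**
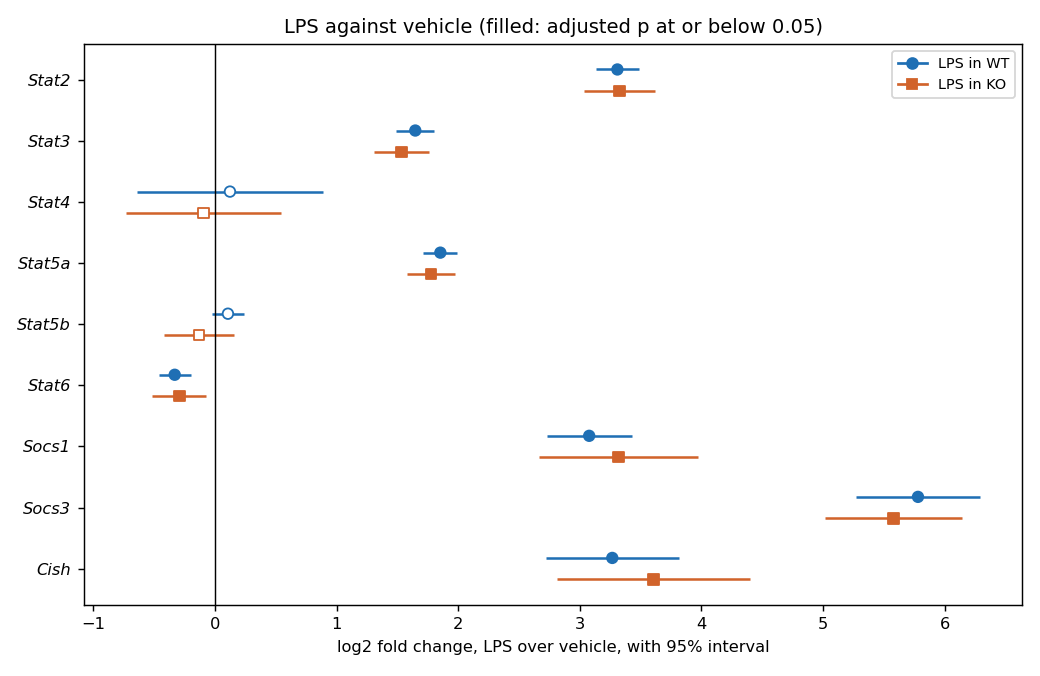
Log2 fold change of each member, LPS over vehicle, in WT (n = 3 against 3, circles) and KO (n = 6 against 6, squares), with 95% intervals. Filled symbols passed an adjusted p of 0.05. Socs3 lies farthest to the right at 5.78 in WT and 5.58 in KO, and Stat6 alone is filled on the left.

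Tested as an interaction, the LPS response of no member differed between genotypes. The terms (KO response minus WT response) ran from -0.22 for Stat5b to 0.36 for Cish. With edgeR 0% of 15093 genes were called, 112 had an unadjusted p under 0.05, none of them a member, and DESeq2 called 0. The intervals allow differences of some size, for example from -0.99 to 0.57 for Socs3 and from -0.36 to 0.44 for Stat2. In the direct comparison of genotypes no member was called either. With vehicle the changes of KO against WT ran from -0.53 (Cish) to 0.25 (Socs3), and 0% of 14385 genes were called by edgeR, 118 at an unadjusted p under 0.05 and 1 by DESeq2. With LPS they ran from -0.31 (Stat4) to 0.17 (Socs1), with 0% of 13794 genes called, 105 at an unadjusted p under 0.05 and 1 by DESeq2.

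CCM given with LPS lowered 4 members in WT macrophages and raised 1. Stat2, Stat3, Stat5a and Cish, which LPS had raised, fell by less than they had risen. Stat6, which LPS had lowered, rose by 0.23 on the log2 scale, against a change of -0.33 with LPS. Both contrasts use the same LPS libraries, so the opposite signs are not an independent result. Over all 13579 genes tested 11.9% were called, 4.15% higher and 7.78% lower. The median log2 change of the members was -0.31, against 0.01 over all genes. Scaled by total counts alone, 1539 genes were called higher and 733 lower in place of 564 and 1057, with a median of 0.09. A fit across all 36 libraries called none of the 5 (adjusted p = 0.501 for Cish, 0.982 for Stat3 and 1 for the others), with changes of the same size. Under total counts alone the members called kept their directions, but Stat5a was no longer called (-0.16, adjusted p = 0.0881).

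Cish changed most. Its LPS libraries held 4.43, 6.21 and 5.27 CPM, or 75, 143 and 131 read pairs, and its LPS+CCM libraries 2.90, 2.57 and 2.35 CPM, or 49, 49 and 45 read pairs. All 3 LPS+CCM libraries lay below all 3 LPS libraries. The log2 change was -1.03 (SE 0.19, adjusted p = 0.0065), with a 95% interval from -1.45 to -0.60. CCM left the level of Cish well above the 0.488 to 0.641 CPM of the vehicle libraries.

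Stat2 measured 294, 279.8 and 299.5 CPM with LPS and 246, 234 and 216 CPM with LPS+CCM, a log2 change of -0.32 (SE 0.057, adjusted p = 0.00488). Stat3 measured 308.5, 321.9 and 338.2 CPM with LPS and 260.3, 255.1 and 264.7 CPM with LPS+CCM, a log2 change of -0.30 (SE 0.046, adjusted p = 0.00197). In both, the treated and untreated libraries did not overlap. Stat5a went from 89.1, 84.4 and 84.5 CPM to 77.2, 71.2 and 69.6 CPM, a log2 change of -0.24 (SE 0.058, adjusted p = 0.0262). Although its groups did not overlap, its adjusted p rose to 0.0692, 0.0681 and 0.0514 without LPS replicates 1, 2 and 3, and to 0.107 and 0.0873 without LPS+CCM replicates 2 and 3. Stat6 rose from 161.4, 175.5 and 180.3 CPM to 196.2, 207.7 and 198.1 CPM, a log2 change of 0.23 (SE 0.051, adjusted p = 0.0175), and reached adjusted p = 0.0591 without LPS replicate 2 and 0.0902 without LPS+CCM replicate 2. Without LPS replicate 2, 3 members remained called in place of 5.

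The feedback inhibitors did not move together. Socs1 had 40.3, 46.3 and 39.2 CPM with LPS and 28.8, 41.3 and 25.7 CPM with LPS+CCM, a log2 change of -0.38 (SE 0.15, adjusted p = 0.126). LPS+CCM replicate 2 was the high library, and without it the change was -0.62 (adjusted p = 0.00685). With no filter on low counts it was -0.38 (adjusted p = 3.67e-05). Socs3 had 407, 508 and 529 CPM with LPS and 399, 558 and 437 CPM with LPS+CCM, groups that overlapped, and a log2 change of -0.04 with a 95% interval from -0.31 to 0.23. A fall of Socs3 of the size seen for Cish lies outside that interval. Stat5b (-0.16, SE 0.072, adjusted p = 0.192) and Stat4 (-0.42, SE 0.36, adjusted p = 0.531) were not called.

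Same-numbered WT libraries deviated together here. A fit with a term for the number, the replicate block, called 7 of the 9 members in place of 5, where 23.7% of all genes were called. The members added were Socs1 (-0.40, adjusted p = 0.000656) and Stat5b (-0.16, adjusted p = 0.0465). Counted by pairs, 6 members were lower with CCM in 3 of 3 pairs (Stat2, Stat3, Stat5a, Stat5b, Socs1 and Cish), as were 26% of all genes. For 5 of them every LPS+CCM library lay below every LPS library, which was so for 15.8% of all genes.

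**Figure D3:**
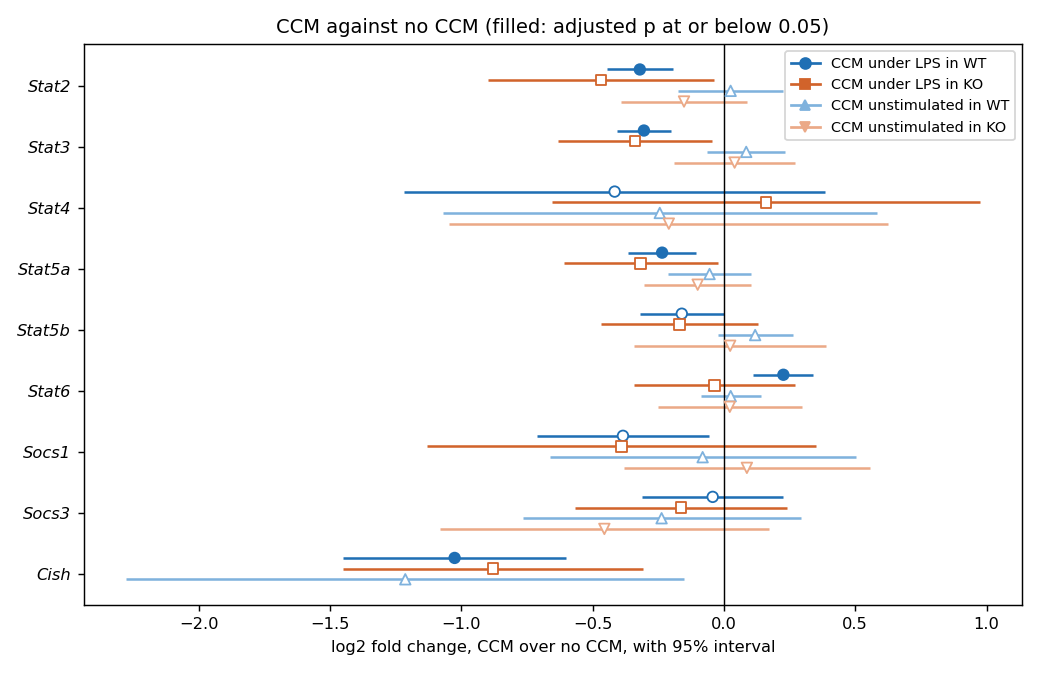
Log2 fold change of each member, CCM over no CCM, with 95% intervals, for WT (n = 3 against 3) and KO (n = 6 against 6) with LPS (dark) and without (light). Filled symbols passed an adjusted p of 0.05 and are found only in WT with LPS; Cish without LPS was not tested in KO. Under LPS the KO point of Stat2 (-0.47) lies to the left of the WT point (-0.32).

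In KO macrophages under LPS no member was called. With edgeR 0.112% of 13386 genes (15 genes) were called, and DESeq2 called 180 genes and 0 members. Without adjustment 1070 genes had a p under 0.05, 4 of them members (Stat2, Stat3, Stat5a and Cish, all lower). Cish had a lowest, median and highest level of 2.87, 4.36 and 6.64 CPM with LPS and 1.75, 2.51 and 3.51 CPM with LPS+CCM. These ranges overlapped, and the log2 change was -0.88 (SE 0.27, adjusted p = 0.292). Stat2 had 218, 241 and 341 CPM with LPS and 111, 188 and 299 CPM with LPS+CCM, a log2 change of -0.47 (SE 0.20, adjusted p = 0.556). The lowest of these libraries, LPS+CCM replicate 5, was also lowest of its group for Stat3 (177 CPM) and Stat5a (44.0 CPM). The log2 changes were -0.34 for Stat3, -0.32 for Stat5a, -0.39 for Socs1, -0.16 for Socs3, -0.17 for Stat5b, -0.04 for Stat6 and 0.16 for Stat4.

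By pairs, Stat2, Stat5a, Socs1 and Cish were lower with CCM in 6 of 6 KO replicates, 4 of 9 members against 9.17% of all genes. For Socs1 the LPS libraries ranged from 25.2 to 81.5 CPM and the LPS+CCM libraries from 18.01 to 65.37 CPM, while the differences within a number were all between -0.48 and -0.22 on the log2 scale. The spread between KO libraries was larger than in WT, with a common biological coefficient of variation of 0.315 against 0.078. Without KO replicate 6 it was 0.193, 170 genes were called and again no member, with -0.76 for Cish (adjusted p = 0.182), -0.47 for Stat2 (adjusted p = 0.274) and -0.38 for Stat3 (adjusted p = 0.148).

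**Figure D4:**
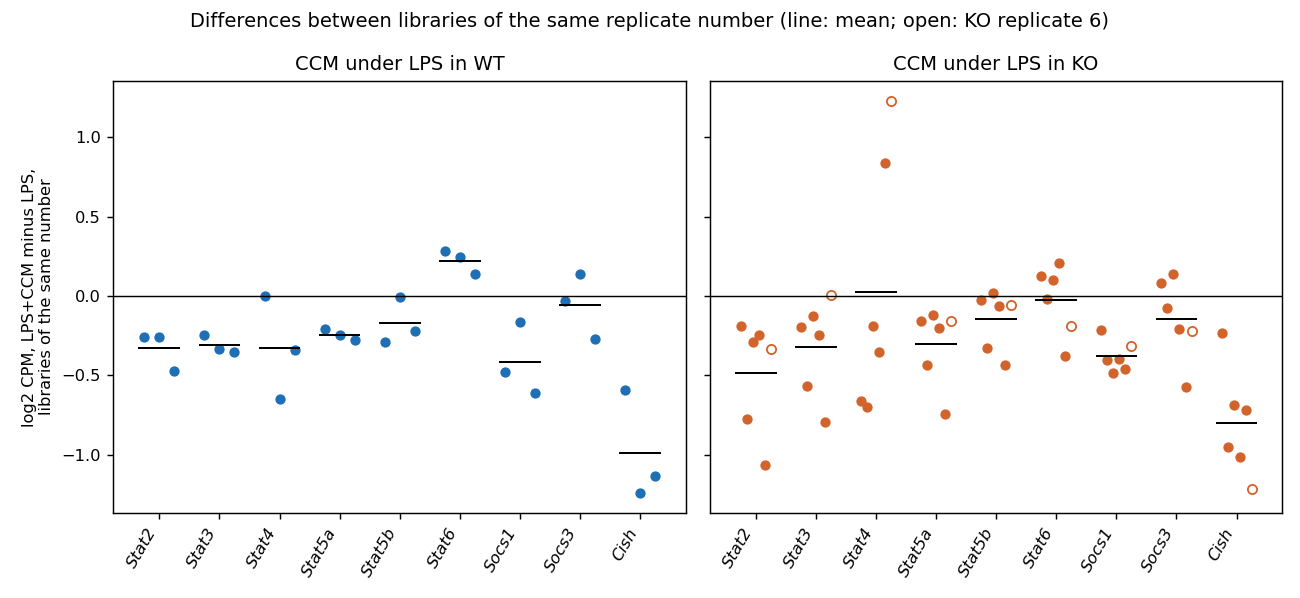
Difference in log2 CPM between the LPS+CCM and the LPS library of the same replicate number, for WT (3 numbers, left) and KO (6 numbers, right), with the mean as a line and KO replicate 6 as an open point. All KO points of Stat2, Stat5a, Socs1 and Cish lie below 0, and those of Socs3 and Stat6 lie on both sides.

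The difference between genotypes in the CCM effect was itself tested. No member passed, with 0% of 14546 genes called by edgeR, 72 at an unadjusted p under 0.05 (none a member) and 0 by DESeq2. The terms (KO effect minus WT effect) were -0.13 for Stat2 (95% interval -0.76 to 0.49), -0.02 for Stat3 (-0.43 to 0.39), -0.07 for Stat5a (-0.48 to 0.35) and 0.16 for Cish (-0.69 to 1.01). The terms of the 9 members ran from -0.25 for Stat6 (-0.68 to 0.19) to 0.58 for Stat4 (-0.66 to 1.83). The calls made in WT and not in KO are therefore not shown to differ between genotypes for any member, nor are the effects shown to be alike.

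Without LPS, CCM moved no member past the test. In WT 0.057% of 14024 genes (8 genes) were called by edgeR, 1404 had an unadjusted p under 0.05, and DESeq2 called 247 genes and 0 members. The lowest change was that of Cish at -1.21 (SE 0.47, adjusted p = 0.446), the only member with an unadjusted p under 0.05. Its 14, 11 and 21 read pairs with vehicle stood against 2, 6 and 8 with CCM, or 0.531, 0.488 and 0.641 CPM against 0.0920, 0.280 and 0.328 CPM. All 3 CCM libraries were lower, but on counts of this size the 95% interval ran from -2.28 to -0.15. The highest change in WT was 0.12 for Stat5b. In KO Cish fell under the filter on low counts (3 to 16 read pairs with vehicle and 4 to 12 with CCM), and the other 8 members ran from -0.46 (Socs3) to 0.09 (Socs1). There 0% of 13799 genes were called by edgeR, 333 had an unadjusted p under 0.05, none of them a member, and DESeq2 called 24. In the replicate block fit 429 genes were called and without KO replicate 6, 141, in both cases with 0 members.

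**Figure D5:**
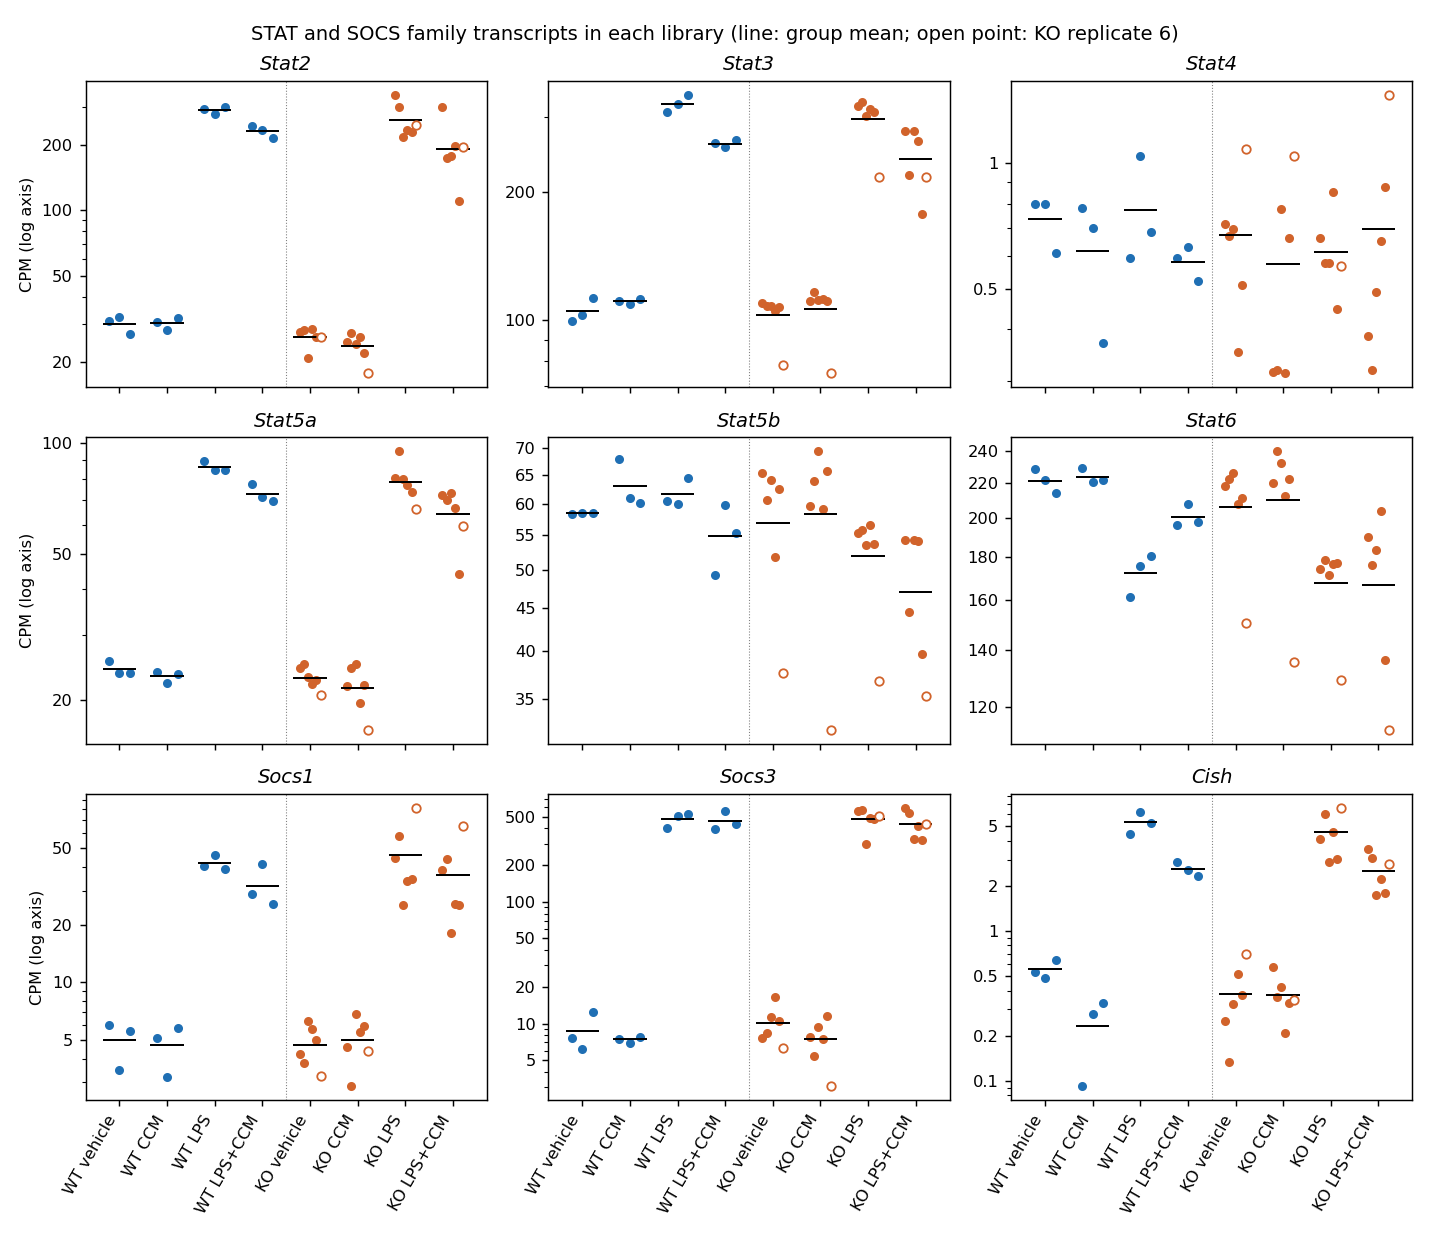
CPM of each member (log axis, a scale of its own in each panel) in each of the 36 libraries, by genotype and treatment, with the group mean as a line and KO replicate 6 as an open point. In 6 panels the levels step up with LPS in both genotypes, while Stat4 stays under 1.5 CPM throughout and Stat6 steps down.

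Whether CCM acted differently with and without LPS was tested as an interaction within each genotype. In WT 1 member passed, Stat3, where 2.09% of 14747 genes were called. CCM changed Stat3 by 0.08 (SE 0.066) without LPS and by -0.30 with it, a difference of -0.40 (SE 0.078, adjusted p = 0.0172). The call was lost without replicate 1 (adjusted p = 0.0593), replicate 2 (0.358) or replicate 3 (0.127), although the difference stayed between -0.42 and -0.39. Over the 9 members the differences ran from that of Stat3 to 0.20 for Socs3. For Stat2 the difference was -0.36 (SE 0.11, adjusted p = 0.112), and DESeq2 called it (adjusted p = 0.0164). For Cish it was 0.18 with a 95% interval from -0.72 to 1.07, so its response to CCM was not shown to differ between LPS and no LPS. In KO 0.00685% of 14588 genes (1 gene) were called by edgeR and 12 by DESeq2, and no member by either. Without adjustment 536 genes had a p under 0.05, 1 of them a member, Stat3. The differences were -0.36 (SE 0.17) for Stat3 and ran from -0.87 (SE 0.46) for Cish to 0.40 (SE 0.55) for Stat4 over the members.

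The wider pathway was counted from lists chosen with earlier results of these data known, each by its calls in WT. There 30.6% of all genes were called higher and 32.4% lower with LPS, and 4.15% higher and 7.78% lower with CCM under LPS. Osm is in both the list of ligands and that of STAT3 and STAT5 targets, and its fall with CCM is counted in each. Of 4 Janus kinases all 4 rose with LPS, Jak2 most (log2 change 3.59, SE 0.078), and 2 fell when CCM was added, Tyk2 most (-0.32, SE 0.067, adjusted p = 0.0125). Of 14 cytokine ligands tested 12 rose with LPS and 1 fell. The largest rise was that of Il12b, a subunit of interleukin 12 and interleukin 23, going from 0.0737 CPM to 570 ± 165 CPM (s.d., n = 3). In WT without LPS (vehicle against CCM) only 7 of the listed ligands passed the filter on low counts. Those that passed only through their LPS libraries could hardly fail to rise, so the count of 12 is partly fixed by the filter. With CCM 11 of 14 were lower and none higher. The largest change there was Ifnb1, the gene of interferon beta, which had 0 counts in the WT vehicle libraries, 1.65 ± 0.33 CPM with LPS and 0.367 ± 0.11 CPM with LPS+CCM, a log2 change of -2.14 (SE 0.35, adjusted p = 0.00322). In KO under LPS 1 ligand was called lower with CCM, Il15 (-0.90, SE 0.15, adjusted p = 0.0407). The median log2 change of the ligands with CCM under LPS was -0.98 in WT and -0.85 in KO, against 0.01 and 0.00 for all genes.

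Of 20 cytokine receptors 13 rose and 3 fell with LPS, and 2 rose and 4 fell with CCM. Il12rb1, a receptor chain for interleukin 12, led both counts, at 2.09 (SE 0.27) with LPS and -1.21 (SE 0.22, adjusted p = 0.00541) with CCM. Of 9 phosphatases, PIAS proteins and Usp18 6 rose and 2 fell with LPS, and 1 rose and 1 fell with CCM. Usp18, a brake on interferon receptor signalling, went from 2.82 to 480.0 CPM with LPS and to 307 CPM with LPS+CCM. All 5 STAT partners rose with LPS and 1 fell with CCM, Nmi, a STAT-binding protein, at 3.25 and -0.48. Of the other 5 SOCS genes 1 rose (Socs7) and 1 fell with LPS, and 1 fell with CCM. Socs6 fell by 1.20 with LPS, and Socs7 fell with CCM, at -0.27 (SE 0.063). The median log2 changes with LPS were 1.15 for the Janus kinases, 0.84 for the receptors, 0.73 for the phosphatase list, 0.50 for the partners and -0.20 for the other SOCS genes, against -0.05 over all genes. With CCM they were -0.16, -0.03, -0.03, -0.02 and 0.025 in the same order, against 0.01.

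Textbook targets of STAT3 and STAT5 numbered 10, of which 6 rose and 1 fell with LPS, and 5 fell with CCM. Fgl2, a secreted coagulant and immune regulator, led at 2.72 (SE 0.15) and -0.69 (SE 0.11, adjusted p = 0.00284). Of the STAT6 targets 4 rose and 4 fell among 9 tested with LPS, and 3 fell among 7 tested with CCM. In WT without LPS 7 were tested, so the rises with LPS include genes that passed the filter through their LPS libraries. Ccl22, a chemokine, led at 6.44 (SE 0.18) and -0.66 (SE 0.059). The medians were 1.19 and -0.35 for the STAT3 and STAT5 targets and 0.13 and -0.27 for the STAT6 targets. No list other than the ligands held a called gene for CCM under LPS in KO.

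The genes whose log2 CPM followed a member most closely over the 36 libraries are given as a description, since all points share the strong step between vehicle and LPS, and the ranks depended on KO replicate 6. Without it, among the genes named here, only Nfkbia for Socs3 kept the first place. Among 11166 genes, Stat2 was nearest to Uba7, Slfn8 and Oas2 (Pearson r 0.994, 0.993 and 0.993) and Stat5a to Uba7, Nod1 and Znfx1 (0.993, 0.992 and 0.992). Uba7 activates the ubiquitin-like protein ISG15 and Oas2 makes the second messenger of RNase L, both interferon-induced. For Stat3 the values for Larp1 and Adar were both 0.995. Socs3 was nearest to Nfkbia, the inhibitor of NF-κB, with 0.995, and then to Fcgr2b and Tlr2, and Nfkbia was also among the nearest to Socs1 (0.971), with Tnfsf9 (0.978) and Ccdc86. Cish was nearest to Irf1 (0.966), Rgs14 and Whamm. Stat6 was nearest to Mknk1 (0.969), Bin2 and Heatr5a, and Stat5b to Gigyf2 (0.955), Mertk and Gse1, but without KO replicate 6 Mknk1 stood at place 44 (0.934), Bin2 at 35, Heatr5a at 68 and Gigyf2 at 11 (0.860). Without it Nod1 stood at place 32 for Stat5a, Oas2 at 13 for Stat2 and Rgs14 at 18 for Cish. Stat4, at its low counts, reached no more than 0.669 (Sf3b2), or 0.463 without KO replicate 6.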

How the data were processed

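Poly(A) RNA of 36 BMDM cultures (8 groups; WT n = 3, KO n = 6) was sequenced as paired ends. The authors trimmed reads with fastp, aligned them to mm10 with HISAT2 2.0.5 and deposited raw counts per gene from featureCounts 1.5.0-p3 (versions per the submitters' processing notes). The annotation release and strand setting are not given in the sources used here. The deposited table also holds gene length and position, and 0 columns of per-sample counts were left out.

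From the counts, edgeR 4.0.16 (R 4.3.3) was fitted per comparison to its own groups, with filterByExpr, TMM, estimateDisp, glmQLFit and glmQLFTest (two-sided, Benjamini-Hochberg over all genes tested, threshold 0.05). There were 12 comparisons. Intervals cover 95% and use the fit's degrees of freedom. CPM use TMM factors, and log2 CPM a prior count of 2. Levels between genes were compared per kb of deposited gene length. The scripts were tested on simulated data with less spread than the KO libraries showed, so that test does not cover the power in KO. Totals per library (13469262 to 28288923) left each pair of libraries of a group further apart than counting noise (chi-square per degree of freedom at least 4.08), so none was treated as a duplicate.

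The members and lists were chosen with earlier results of these data known. The 9 members are given in each comparison as values or as a range. From each pathway list the called gene with the largest change for LPS and for CCM under LPS in WT is named, with 2 additions named after their values were seen (Il15 and Socs7 with LPS). The 3 genes most like a member, STAT and SOCS families left out, were ranked by Pearson r among genes with a mean log2 CPM of at least 1. One of them is not reported here. Protein sequences were not analysed here.

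Same-numbered libraries were checked for pairing: each library's deviation from its group mean was correlated with that of the library of the same number. The correlation was over 0.1 for every number in CCM under LPS in WT (0.151 to 0.36), LPS in KO (0.298 to 0.83) and unstimulated CCM in KO (0.337 to 0.844), and not in LPS in WT (lowest 0.047), CCM under LPS in KO (lowest -0.1) or unstimulated CCM in WT (lowest 0.051). Alternatives were DESeq2 1.42.0, RLE size factors, total counts alone, no filter beyond 1 count, a replicate block, all 36 libraries in 1 fit, and leaving out libraries (81 refits). Bmal1 is listed in the table as Arntl.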

Additional observations from a re-analysis of the deposited data

Results flagged for a closer look

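Of 36 groups of 6 KO libraries, 1 for each member and treatment, 10 held a library far from the others by Dixon's test at the 95% level, which chance flags in about 1 group in 20. KO replicate 6 was that library in 8 of the 10, always as the lowest. Stat3 was 78.4 CPM in it with vehicle (others 105 to 109), 75.0 with CCM (others 111 to 116) and 217 with LPS (others 302 to 325). Stat5b was 32.2 CPM with CCM (others 59.1 to 69.3) and 36.8 with LPS (others 53.6 to 56.6). Stat6 was 151 CPM with vehicle (others 208 to 226), 135 with CCM (others 212 to 239.6) and 129 with LPS (others 171 to 179). In the same libraries neutrophil markers were at 849 to 878 CPM and their part in these values was not tested.

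The remaining libraries were both of KO replicate 3, with Stat2 at 20.9 CPM under vehicle (others 26.1 to 28.5) and Socs3 at 296 CPM under LPS (others 477 to 564). The effect of CCM on Stat3 in WT differed between LPS and no LPS by -0.40 on the log2 scale, by the interaction test given above.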

How the results depend on the processing

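With LPS, 6 to 8 members were called under each alternative in either genotype, in place of 7, and the fit across all libraries called 5644 genes in WT in place of 9139. For CCM under LPS in WT, where 5 members were called, the fit across all 36 libraries called 0 (17 genes), and leaving out single libraries gave 3 to 5, the lowest without LPS replicate 2 (958 genes), and 893 genes without LPS+CCM replicate 2. For the LPS by CCM interaction in WT, where 1 member was called, DESeq2 called 2 (696 genes), no filter 2 (721 genes), total counts alone 0 (347 genes, 230 higher and 117 lower in place of 69 and 239) and the fit across all libraries 0, as did leaving out each replicate (0 to 0). With the replicate number as a block, 3 members were called for CCM under LPS in KO (Stat2, Socs1 and Cish, all lower; 777 genes in place of 15), where the numbers did not meet the bar for pairing; 7 were called in WT (3220 genes in place of 1621), and 1 for the interaction in WT (548 genes). The block changed no other count of members called, with 255 genes in place of 8 for unstimulated CCM in WT and 81 in place of 1 for the interaction in KO.

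Directions turned only for members that did not pass the test. Under total counts alone Stat4 was -0.29 and Stat5b -0.31 with LPS in WT, Socs3 0.038 with CCM under LPS in WT and Stat6 0.009 in KO. Leaving out libraries, Stat4 ran from -0.15 to 0.27 with LPS in WT, from -0.37 to 0.092 with LPS in KO and from -0.19 to 0.30 with CCM under LPS in KO. Socs3 ran from -0.20 to 0.049 with CCM under LPS in WT, and Stat6 from -0.085 to 0.031 in KO. In the interaction in WT Cish ran from -0.33 to 0.50, Stat4 from -0.35 to 0.046 and Socs3 from -0.012 to 0.32. The cause was not tested. Socs3 in KO against WT under vehicle was 0.25, and 0.61 without WT vehicle replicate 3, not called either way. Read pairs per library were 6 to 26 for Stat4 and 2 to 21 for Cish without LPS, counts at which counting error is large.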
